A study of Mus musculus with 34 samples.

Results

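The neural tube list of SMARCA4 holds 14362 of the 354733 regions in the lists used here, and every one was used. It was compared with the 7 other SMARCA4 lists of the series, those of face, forebrain, midbrain, hindbrain, limb, heart and embryonic stem cells (ESC). A region with no overlap of 1 bp or more with any of these is called own below, and the others are called shared. There were 3201 own regions, 22.3% of the list, and 11161 shared regions. The lists of the series hold positions of peaks from chromatin immunoprecipitation with sequencing (ChIP-seq) on mouse tissue, and 30 lists were used here.

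The neural tube sample came from 129/C57BL/6 embryos of embryonic day 11.5 with a FLAG tag knocked into Smarca4, pooled from about 150 embryos of both sexes. Chromatin was precipitated with an antibody against FLAG, and fragments of 300 to 500 bp were sequenced as 50 bp reads. The 7 other SMARCA4 samples carried the same knock-in on the same strain, at day 11.5 except for the ESC, with about 300 embryos for heart and midbrain and about 150 for the other tissues. The tissue tag of the sample reads "tube", and the tag of the hindbrain sample names forebrain, so both were taken by their titles. The histone marks came from forebrain and limb of CD1 embryos of the same day without a stated knock-in. The 6 lists of other tagged factors and the 9 control and input lists were also of day 11.5, except EP300 in ESC. Pools were of about 300 embryos for those factors and the controls and about 150 for the marks and their inputs. For EP300 in ESC no pool is given. There was 1 library per tissue, so no p-value is given and every difference is one between lists. Intervals are exact 95% binomial (Clopper-Pearson) intervals for shares and Newcombe intervals for differences, and they cover counting error only. The number of reads behind each list is unknown. A list of the neural tube's own control was not analysed here.

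SMARCA4 (BRG1) is an ATPase of the SWI/SNF (BAF) complexes, which slide and evict nucleosomes and so open chromatin at promoters and enhancers. In the developing nervous system, subunits of these complexes change as progenitors become neurons. The neural tube of the embryo is patterned from dorsal to ventral by BMP and WNT signals of the roof plate and by Sonic hedgehog of the floor plate, and each band of progenitors is known by its transcription factors. H3K4me3 marks active gene starts, H3K4me1 marks enhancers and the flanks of starts, H3K27ac marks active elements, and H3K27me3 marks chromatin held by Polycomb.

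The regions themselves are deposited as mm9 positions. The starts of a few genes are printed here because own regions lay on them or within 1 kb. The own region of Olig2 lay beside its start and not over it. A start under a shared region is given for comparison. The sequences are RefSeq promoters of build GRCm38.p6, matched by gene symbol, each from 250 bases before to 50 bases after the annotated start, read along the gene's strand. The stretches are chr10:19356289-19356588 (+) for Olig3, chr14:104467950-104468249 (-) for Pou4f1, chr2:147186353-147186652 (-) for Nkx2-2, chr16:91225300-91225599 (+) for Olig2, chr2:74704365-74704664 (+) for Hoxd8 and chr5:100039744-100040043 (+) for Enoph1. Capitals mark each CpG, the letters CG, which read the same on both strands.
Olig3: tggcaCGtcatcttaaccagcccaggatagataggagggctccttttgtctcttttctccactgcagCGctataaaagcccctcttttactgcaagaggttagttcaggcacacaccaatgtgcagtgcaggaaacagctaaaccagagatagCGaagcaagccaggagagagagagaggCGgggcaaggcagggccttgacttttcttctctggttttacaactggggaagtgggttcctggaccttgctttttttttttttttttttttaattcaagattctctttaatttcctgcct
Pou4f1: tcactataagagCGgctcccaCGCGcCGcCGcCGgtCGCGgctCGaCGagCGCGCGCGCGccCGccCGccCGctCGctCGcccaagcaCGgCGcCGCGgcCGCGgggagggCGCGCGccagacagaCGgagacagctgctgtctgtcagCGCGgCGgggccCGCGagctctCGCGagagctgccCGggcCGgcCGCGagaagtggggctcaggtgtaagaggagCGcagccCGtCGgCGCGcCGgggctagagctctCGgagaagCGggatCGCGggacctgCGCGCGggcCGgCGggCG
Nkx2-2: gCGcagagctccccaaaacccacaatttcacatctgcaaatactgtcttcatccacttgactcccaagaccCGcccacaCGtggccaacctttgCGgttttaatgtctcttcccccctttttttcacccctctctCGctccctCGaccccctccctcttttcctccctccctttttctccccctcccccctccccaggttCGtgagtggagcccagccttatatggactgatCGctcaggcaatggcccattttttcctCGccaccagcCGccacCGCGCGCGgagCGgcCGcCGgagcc
Olig2: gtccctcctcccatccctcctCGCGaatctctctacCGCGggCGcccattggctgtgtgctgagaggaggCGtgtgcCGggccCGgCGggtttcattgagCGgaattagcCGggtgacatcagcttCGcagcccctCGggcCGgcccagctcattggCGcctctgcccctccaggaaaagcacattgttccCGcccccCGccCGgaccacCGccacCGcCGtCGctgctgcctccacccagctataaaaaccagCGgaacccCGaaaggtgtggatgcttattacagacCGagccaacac
Hoxd8: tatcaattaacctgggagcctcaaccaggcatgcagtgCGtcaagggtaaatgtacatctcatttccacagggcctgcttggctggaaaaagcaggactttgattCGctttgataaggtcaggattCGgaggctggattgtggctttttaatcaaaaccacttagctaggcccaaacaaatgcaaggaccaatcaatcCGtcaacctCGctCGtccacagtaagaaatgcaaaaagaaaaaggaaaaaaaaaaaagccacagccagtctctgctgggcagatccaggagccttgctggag
Enoph1: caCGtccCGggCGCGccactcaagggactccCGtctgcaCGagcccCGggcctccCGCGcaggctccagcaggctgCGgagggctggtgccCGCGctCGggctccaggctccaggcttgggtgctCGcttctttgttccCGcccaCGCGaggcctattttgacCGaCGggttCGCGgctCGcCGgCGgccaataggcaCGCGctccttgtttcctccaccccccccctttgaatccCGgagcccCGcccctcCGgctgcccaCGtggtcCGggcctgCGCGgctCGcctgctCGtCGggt

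These starts differed widely in CpG content. Those under own regions held 4 CpG in Olig3, 6 in Hoxd8, 17 in Nkx2-2 and 57 in Pou4f1. That of Olig2, beside an own region, held 25. Enoph1, whose start lay under a shared region of rank 5, held 36. Starts not printed here varied as well. Rragd, at a shared region of rank 3, held 6. At own regions, Insm2 held 14, Tlx1 16 and Gbx2 27. Over the 32851 promoters of the table the median was 7 CpG with quartiles of 3 and 20, and 94.6% held at least 1. Of 228 genes with own regions alone at the start, 116 had a promoter in the table, with a median of 23 CpG. Of 8152 genes with a shared region at the start, 4586 had one, with a median of 24. Many genes of both sets had no promoter there, so own and shared starts are not compared further.

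The first question was how the neural tube regions spread over the other tissues. The face list covered most of them, 10350 regions or 72.1% (71.3 to 72.8%). The forebrain list covered 34.3%, limb 33.3%, heart 23.1%, hindbrain 21.1%, ESC 7.02% and midbrain 3.59%. Counted the other way, the order was different. A neural tube region lay over 90.8% of limb, 66.3% of forebrain, 56.2% of hindbrain and 34.2% of midbrain regions. For face it was 30.2%, for heart 25.9% and for ESC 15.2%. In number of other lists, 2849 regions lay over 1, 3232 over 2, 2694 over 3, 1561 over 4, 663 over 5, 153 over 6 and 9 over all 7. The face list was alone in 2257 of the 2849 regions that shared with a single list, against 186 for limb, 170 for forebrain, 104 for heart, 65 for hindbrain, 47 for ESC and 20 for midbrain. The lists differ in length and width, and the part of this in the shares was not tested: the face list has 35099 regions of a median 489 bp, while the midbrain list has 1513 regions. Without the face list 38.0% of the neural tube regions would be own.

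Regions held in common with the brain and with no other tissue were few. Overlap with forebrain, midbrain or hindbrain and with none of face, limb, heart and ESC was found for 269 regions, 1.87% of the list. Of these, 34.2% (28.5 to 40.2%) lay over H3K4me3 of forebrain or limb and 24.9% within 1 kb of a gene point, the point from which the authors measured distance to a gene. Another 4667 regions overlapped face, limb, heart or ESC and no brain list, and 83.01% of those lay over H3K4me3. That share went with the face list: regions over face alone stood at 83.6%, while those over limb alone stood at 27.4%, heart alone at 29.8% and ESC alone at 23.4%, near the brain lists. The best-ranked of the 269 was at chr4:136681551-136684650 with rank 280, shared with hindbrain and 78.5 kb from the point of Zbtb40, a zinc finger gene. The next, at chr19:12573151-12577100 with rank 297, was shared with forebrain and lay 0.819 kb from the point of Dtx4, which codes for a Deltex ubiquitin ligase of the Notch pathway.

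The rule that divides own from shared regions has an edge at a single base. Just outside it, 365 own regions (11.4%) lay within 1 kb of another list, 223 of them near a face region. Just inside it, 50 shared regions were overlapped by less than 100 bp by any list. Of the shared regions, 3436 (30.8%) had no other list covering 50% of their length, and the median of the longest overlap was 1700 bp.

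Own regions lay late in the ranking of the list. The deposited list ranks its regions from 1 to 14362, and no source used here says what orders them. They were cut into 10 rank classes of equal size, of which class 1 holds the best ranks. In class 1, 24 of 1437 regions were own, or 1.67% (1.07 to 2.47%). The share was larger in each following class, reaching 16.3% in class 5 and 53.3% (50.7 to 55.9%) in class 10, where 765 of 1436 regions were own. Class 10 exceeded class 1 by 51.6 percentage points (48.9 to 54.2). The median rank was 11002 among own and 5932 among shared regions.

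Own regions were also narrow. Their median width was 1550 bp with quartiles of 1350 and 2050 bp, and that of shared regions was 2400 bp with quartiles of 1900 and 3150 bp. Widths ran from 1100 to 7000 bp in both sets, so the sets overlapped over the whole range. Late regions are narrow too, with a median of 3000 bp in class 1 and 1700 bp in class 10, but own regions had the lower median in each of the 10 classes. The medians were 2025 against 3000 bp in class 1 and 1400 against 2100 bp in class 10. Width and rank each went with the own share within classes of the other. These classes were broad, so width and rank were not fully separated. Among regions up to 1650 bp, 26.2% were own in rank classes 1 to 5 and 58.1% in the other 5. Among regions of 3050 bp or more the same shares were 2.86% and 12.3%. A wide region meets another list more easily, and the part of this in the own share was not tested. The boundaries of all neural tube regions fall on multiples of 50 bp, as do all those of the forebrain and limb lists and hardly any of the other lists used here.

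**Figure D1:**
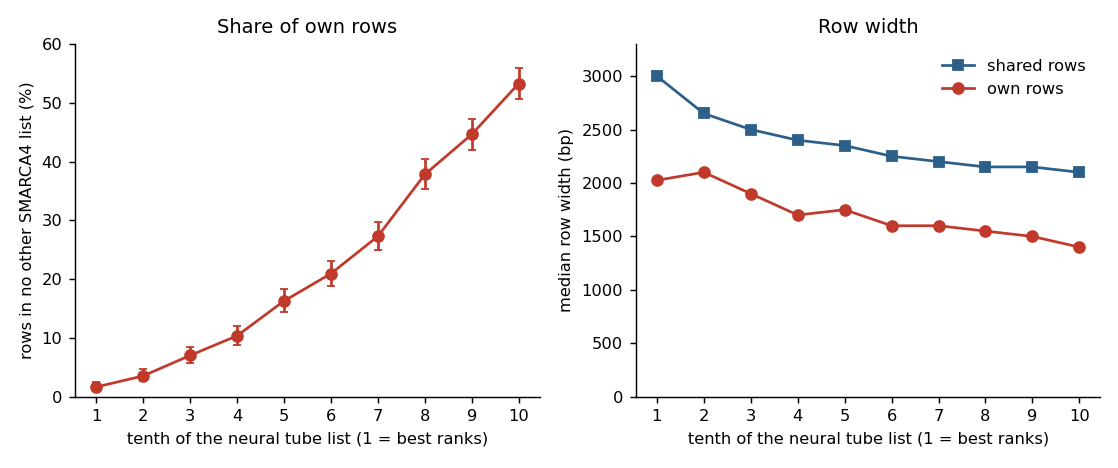
The left panel plots the percentage of neural tube regions found in no other SMARCA4 list for each of the 10 rank classes, with exact 95% intervals; the right panel plots the median width in bp of own and shared regions in the same classes. The own share goes from 1.67% to 53.3%, and the own median lies below the shared median in each of the 10 classes.

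Histone marks of forebrain and limb lay over most shared regions and over a minority of own regions. H3K4me3 of either tissue covered 9815 of 11161 shared regions, 87.9%, and 321 of 3201 own regions, 10.03% (9.01 to 11.1%). The difference, own minus shared, was -77.9 percentage points (-79.1 to -76.7). It was -48.6 points without the face list, and -9.65 points with all 8 SMARCA4 lists, the neural tube list included, cut to their 1513 first regions. Marks of the neural tube itself were not analysed here, so a region without a mark here may carry it in its own tissue. Within the rank classes the H3K4me3 share stayed between 4.17% and 17.4% of own regions and between 69.0% and 94.8% of shared regions. Within 4 classes of width it was higher in wider own regions, from 5.26% in the narrowest to 30.7% in the widest, while shared regions stood at 81.4% and 89.4%.

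H3K4me1 of either tissue covered 37.9% of own and 91.4% of shared regions, a difference of -53.5 points (-55.2 to -51.7), which was -33.0 without the face list and -3.15 at equal list lengths. By tissue, 23.4% of own regions lay over H3K4me1 of forebrain and 30.5% over that of limb, against 79.8% and 85.7% of shared regions. H3K27ac, mapped in limb, covered 5.53% of own and 61.2% of shared regions. H3K27me3 of forebrain covered 224 own regions and 28.5% of shared regions, and that of limb 11.8% and 38.5%. None of the 7 mark lists touched 1814 own regions, 56.7% (54.9 to 58.4%), and 269 shared regions, 2.41%. Own regions of better rank lay more often over H3K4me1. It covered 62.5% (40.6 to 81.2%) of 24 in rank class 1, 70.6% of 51 in class 2 and 32.2% of 765 in class 10. H3K4me3 did not follow this order, with 4.17% of own regions in class 1, 17.4% in class 4 and 5.62% in class 10.

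Away from H3K4me3 the contrast was smaller but kept its direction. Of the 2880 own regions there, 32.6% lay over H3K4me1, against 73.8% of 1346 shared regions, and H3K4me1 of both tissues covered 11.2% and 45.8%. The neural tube is central nervous tissue like the forebrain, so regions marked in a single tissue were counted. Of all 3201 own regions, H3K4me1 of forebrain and not limb covered 238 (7.44%), against 5.75% of shared regions. H3K4me1 of limb and not forebrain covered 466 (14.6%), against 11.7% of shared regions. The limb list is longer, with 58181 regions over 117.6 Mb against 34848 over 65.5 Mb in forebrain. With the limb list cut to the length of the forebrain list, an alternative chosen after seeing the data, the counts were 329 (10.3%) and 309 (9.65%), against 13.7% and 6.61% of shared regions, so which tissue led depended on the length of the lists.

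**Figure D2:**
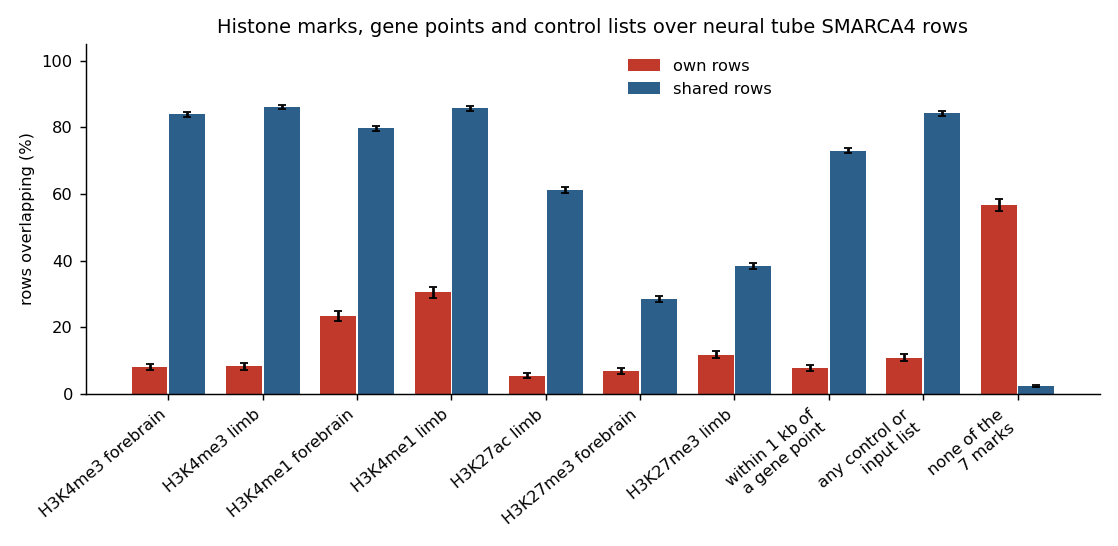
Bars give the percentage of own (3201) and shared (11161) neural tube regions that overlap each mark list by at least 1 bp, lie within 1 kb of a gene point, overlap any control or input list, or overlap none of the 7 mark lists, with exact 95% intervals. Own regions are lower in every class except the last, where 56.7% of own and 2.41% of shared regions stand.

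The marks differed by the number of other lists over a region, and by whether face was among them. H3K4me3 covered 10.03% of own regions, 72.5% of those over 1 other list, 88.6% over 2 and 96.9% over 4. Among regions over 1 other list it was 83.6% for face, which holds 2257 of the 2849, and between 15% for midbrain and 46.2% for hindbrain for the other lists. Regions over forebrain and limb alone stood at 23.2%. H3K27ac of limb went from 5.53% to 44.6% over 1, 56.5% over 2, 67.0% over 3 and 77.3% over 4. H3K27me3 took another course: it was 13.2% of own regions, highest at 47.0% in regions over 3 other lists, and 28.1% in regions over 6. Median width went from 1550 bp in own regions to 3650 bp in regions over 6 other lists.

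**Figure D3:**
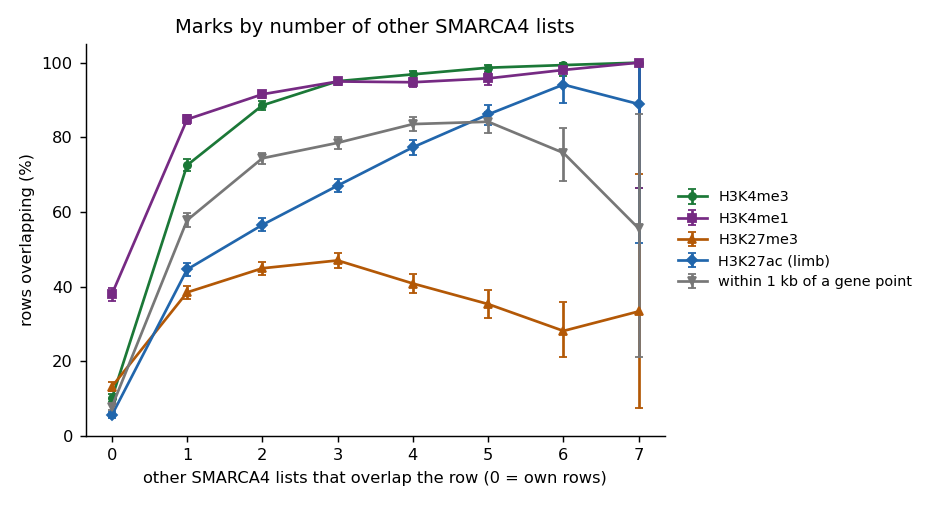
Each line gives the percentage of neural tube regions over a mark of forebrain or limb (H3K27ac of limb alone), or within 1 kb of a gene point, by the number of other SMARCA4 lists that overlap the region, with exact 95% intervals. H3K4me3 goes from 10.03% at 0 lists to 96.9% at 4, while H3K27me3 is highest, at 47.0%, at 3. Of the 2849 regions at 1 list, 2257 lie over face.

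Own regions were mostly far from gene points. Within 1 kb of a point lay 248 own regions, 7.75% (6.84 to 8.73%), against 73.0% of shared regions. Between 10 and 50 kb lay 36.9% of own and 12.2% of shared regions, and between 100 and 500 kb 19.6% and 2.72%. The median distance was 31.7 kb for own regions, and the median of 0 for shared regions means that the point mostly lay inside them.

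Control and input lists went with the shared regions as well. Any of the 9 control and input lists covered 10.8% of own and 84.2% of shared regions, and the control of midbrain SMARCA4 alone covered 6.90% and 76.7%. Single lists differed. The control of the BAF subunit SMARCC2 in face covered 0.219% and 0.269%, a difference of -0.0501 points (-0.211 to 0.195). The input lists covered little of either set, such as 0.0625% and 0.529% for that of limb H3K27ac and 0 and 0.0627% for that of forebrain. The part of control and input lists in the contrast was not tested. Without the regions over such a list, 2854 of 4621 remaining regions were own, H3K4me3 covered 4.59% of own and 46.0% of shared regions, and H3K4me1 33.4% and 80.8%.

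The own regions of best rank were named by a fixed rule. The first, of rank 63, was at chr2:115805101-115807400, 2300 bp wide, over H3K4me1 of forebrain and not of limb, and 81.8 kb from the nearest point, that of a transcript the files name meis2a. The second, of rank 131, was at chr8:122978251-122980700, 33.3 kb from the point of Gse1, over H3K4me1 of both tissues. The third, of rank 288, was at chr3:101770251-101772900, 42.5 kb from the point of Nhlh2, a helix-loop-helix factor of newborn neurons, and lay over none of the 7 marks. The others of the first 10 ran to rank 692 and lay nearest to AK044089, 1110021J02Rik, AK019626, Plscr1, Bach2, AK136017 and Vapb. Plscr1 codes for a phospholipid scramblase, Bach2 for a transcriptional repressor of the BACH family and Vapb for a protein of membrane contact sites. None of the 10 lay over H3K4me3 or over a control or input list, 6 lay over H3K4me1, and all were more than 10 kb from a gene point, at 19.2 to 173.7 kb.

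Genes were then ranked by own regions whose midpoint lay within 100 kb of their point. Of 16001 genes with a point, 89.9% had at least 1 neural tube region in this territory, 30.6% had at least 1 own region and 2.09% had at least 3. These last were 334 genes, and 85 within 50 kb or 1445 without the face list. Eml1, a microtubule-associated protein needed for the placing of neural progenitors, had the most, 8 own of 11 regions. They lay 3.15 to 64.4 kb from its point on chromosome 12, had ranks of 5081 to 13621, and 5 of the 8 lay over H3K4me1. The other lists held 10 regions in that territory in face, 4 in forebrain, 3 in heart, 2 in limb, 1 in hindbrain and 0 in midbrain and ESC. Gse1, which codes for a coiled-coil protein found with histone demethylase complexes, had 7 own of 18 regions, and all 7 lay over H3K4me1. Its territory was rich in other tissues too, with 15 heart, 12 face and 9 midbrain regions.

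Other leading loci held 6 or 5 own regions. B3galt5, a galactosyltransferase gene, had 6 of 8. The unannotated transcripts DQ284430, AK077135 and AK015810 had 6 each, of 9, 6 and 7 regions. None of the 6 at AK015810 lay over any mark. AK083547 had 5 own of 6 regions, in a territory with 10 heart regions. Pax7, the paired-box factor of dorsal neural progenitors, had 5 of 8. Without the face list Pax7 had 8 own regions and Gse1 11, and with a tolerance of 1 kb Pax7 had 3.

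Adjacent loci on chromosome 5 made up part of this ranking. Adrbk2, a G protein-coupled receptor kinase gene, had 6 own of 7 regions, and all 6 also lie within 100 kb of the crystallin gene Crybb2 and 5 within 100 kb of Crybb3. AK077135 lay next to it, and AK006334 had 5 of 10 beside Sez6l, a gene of neurons. Together these 3 loci covered chr5:112974551-113532800, in which 16 of 19 neural tube regions were own. The loci were chosen for their own regions and the ends of the stretch are own regions, so this count is a description. Of the 16, 13 lay over H3K4me1, none lay over H3K4me3 and none over a control or input list. The face list had 17 regions in the same stretch, heart and ESC 4 each, forebrain 3, hindbrain and midbrain 1 each and limb 0. That none of these touched an own region follows from the rule that defines own regions.

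**Figure D4:**
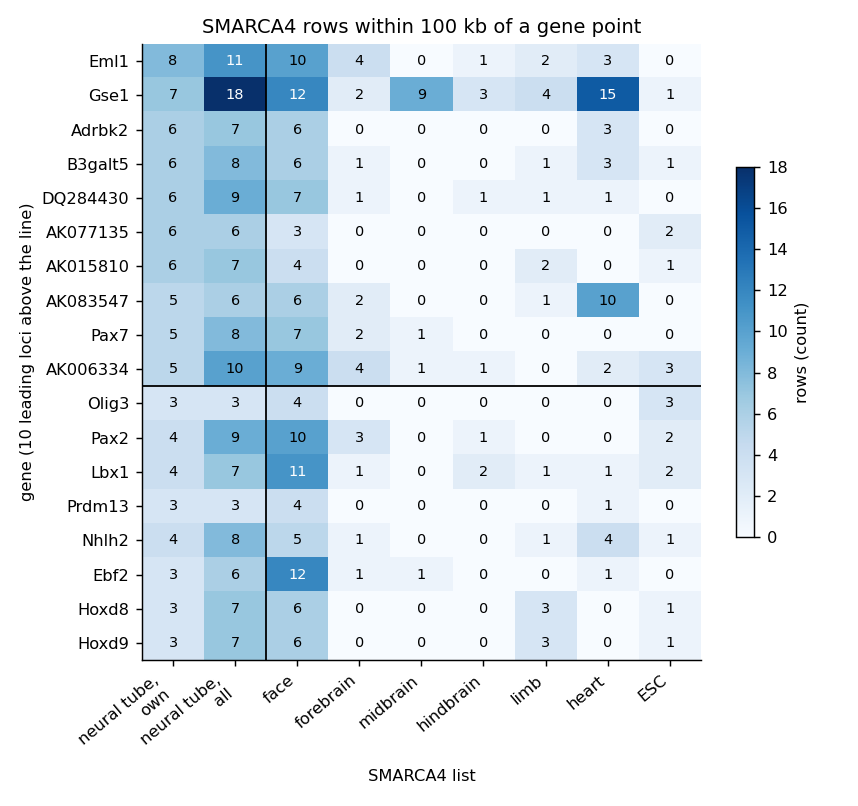
Numbers of SMARCA4 regions within 100 kb of the gene point in each list, for the leading genes of the 10 loci with the most own regions (above the line) and for other members of the neural tube and trunk Hox lists with at least 3 own regions. The first column counts own neural tube regions, from 3 to 8, and the second all neural tube regions, from 3 at Olig3 and Prdm13 to 18 at Gse1.

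Genes known from the neural tube were read in 6 lists, of dorsal progenitors and roof plate, ventral progenitors and floor plate, spinal interneurons, motor neurons, neural progenitors and early neurons. Together 97 of their 100 genes had a point. An own region lay within 100 kb of 52 of the 97, 53.6% (43.2 to 63.8%), against 30.6% of all genes, and the median was 1 own region per member against 0. Without the face list the shares were 73.2% and 54.7%. Without regions near a gene point they were 36.1% (26.6 to 46.5%) and 26.7%, an interval that holds the share of all genes. With all own regions, lists of other tissues and cells ran from 9.09% for heart to 53.3% for face and limb mesenchyme. Endothelium and neural crest stood at 50% and forebrain at 44.4%. The excess within 100 kb was thus not shown to be particular to the neural tube. Any neural tube region lay within 100 kb of 88 members, or 90.7%, close to the 89.9% of all genes. At least 3 own regions were found at 7 members.

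Among dorsal genes, 12 of 19 had an own region, 63.2% (38.4 to 83.7%), against 30.6% of all genes. Pax7 had 5, at chr4:139311901-139315600, chr4:139348301-139349650, chr4:139361401-139363400, chr4:139378851-139380900 and chr4:139459401-139461950, from 75.1 kb on one side of its point to 71.8 kb on the other. The other lists held 7 regions there in face, 2 in forebrain, 1 in midbrain and 0 in the other 4. Olig3, a helix-loop-helix factor of the most dorsal progenitors, had 3 regions, all own, at chr10:19001201-19002500, chr10:19075951-19077900 and chr10:19146551-19149150, the second of them on its start. In this territory face had 4 regions, ESC 3 and the other 5 lists 0. Wnt1, a roof plate signal, had 2 own of 9 regions, while the 3 regions of Pax3, the 2 of Lmx1a and the 1 of Zic1 were all shared.

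Among ventral genes, 10 of 12 had an own region, 83.3% (51.6 to 97.9%), against 30.6% of all genes. These 10 had 1 or 2 each. Shh, the floor plate signal, Foxa2, a factor of the floor plate, Nkx2-2 and Nkx6-2, homeobox factors of ventral progenitors, and Olig2, the factor of motor neuron progenitors, had a single neural tube region each, and it was own. The own regions of Shh and Nkx2-2 had ranks of 12675 and 13090, and that of Olig2 13931, all in rank classes 9 and 10. Irx3 had 2 own of 4 regions and Ntn1, the axon guidance gene netrin-1, 1 of 4. Nkx2-9 and Nkx6-1 had 1 region each, which was shared.

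Of the interneuron genes, 13 of 23 had an own region, 56.5% (34.5 to 76.8%), against 30.6% of all genes. Pax2, a factor of inhibitory interneurons, had 4 own of 9 regions, at chr19:44754551-44759400, chr19:44807651-44810200, chr19:44813401-44816800 and chr19:44874751-44877550. Lbx1, which specifies dorsal interneurons, had 4 of 7, at chr19:45224501-45226800, chr19:45307651-45312550, chr19:45398151-45399550 and chr19:45399901-45401150, of which the first lies on the start of Tlx1 and the second on its own start. Prdm13, a factor of dorsal interneurons, had 3 regions, all own, within 6.86 kb of its point, of which chr4:21615151-21616950 had rank 2174. A control or input list lay over all 3 of Prdm13, over 2 of the 4 of Pax2 and over 1 of the 4 of Lbx1, and its part was not tested; none lay over the own regions of Pax7 and Olig3. In face, Pax2 had 10 regions in its territory, Lbx1 11 and Prdm13 4. Barhl2 and Sim1, a homeobox and a helix-loop-helix factor of interneuron classes, had no neural tube region within 100 kb, while face had 4 and 2.

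Motor neuron and early neuron genes stood near all genes. An own region lay near 4 of 11 motor neuron genes, 36.4% (10.9 to 69.2%), and 6 of 19 early neuron genes, 31.6% (12.6 to 56.6%). Chat and Slc18a3, which encode the enzyme that makes acetylcholine and its vesicular transporter, share 1 own region, at chr14:33275951-33279050. Among early neuron genes, Nhlh2 had 4 own of 8 regions and Ebf2, a COE-family factor, 3 of 6. Slc5a7 of the motor neuron list and Neurod4, Insm1 and St18 of the early neuron list had no neural tube region. Of the neural progenitor genes, 7 of 13 had an own region, 53.8% (25.1 to 80.8%), an interval that holds the 30.6% of all genes. Among them were Notch1 with 2 of 7 and Sox3 with 1 of 1. Sox1, Sox2 and Sox9 had shared regions alone, and Dll1, a Notch ligand, had no neural tube region.

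Trunk Hox genes, which pattern the body axis, had own regions at 8 of the 10 members with a point. Only 10 of 23 members have one, so the share is not read further. Hoxd8 and Hoxd9 share 3 own of 7 regions, at chr2:74541401-74545800, chr2:74590051-74592050 and chr2:74628301-74629650, and the first, of rank 1617, lies on the start of Hoxd8. The same territories held 3 limb and 6 face regions and none of forebrain, midbrain or hindbrain. All 3 own regions lie over a control or input list, and the control of midbrain has 8 regions in the territory. Since neighbouring Hox genes count the same regions, they are not separate observations.

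Lists of other tissues and cell types were read in the same way. An own region lay near 8 of 18 forebrain genes, 6 of 14 midbrain and hindbrain genes, 8 of 15 face and limb mesenchyme genes, 5 of 12 ESC genes, 1 of 11 heart genes, 6 of 17 housekeeping genes and 5 of 21 genes of SWI/SNF subunits and tagged factors. Of cells that a dissected neural tube could carry along, neural crest and sensory ganglia had 4 of 8, somites and their derivatives 4 of 10, endothelium 6 of 12 and blood 2 of 6. For these the lists are short, and each interval holds the 30.6% of all genes. For blood, 6 of 10 genes had a point, and for somites 10 of 13, which is under the share needed to read a list. Peak positions do not show which cells of the pooled tissue carried the factor.

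Own regions also lay on or close to the starts of neural tube genes. An own region lay within 1 kb of the point of 17 of the 97 members, 17.5% (10.6 to 26.6%), against 232 of 16001 genes, 1.45%. Lists of other tissues and cells also stood above all genes, with 16.7% in endothelium, 12.5% in neural crest, 11.1% in forebrain and 8.33% in ESC, on 1 or 2 genes each, so the excess was not shown to be particular to the neural tube. Among members with any neural tube region at the start it was 17 of 64, or 26.6%, against 2.77% of all such genes. By this measure lists of other tissues and cells ran from 0 in heart and blood to 28.6% in forebrain and 50% in endothelium. The last 2 rest on 2 genes each. The 17 neural tube members were Gdf7, Msx1 and Olig3 of the dorsal list, and Shh, Nkx2-2, Nkx6-2 and Olig2 of the ventral list. Lhx5, Lbx1, Tlx1, Pou4f1, En1 and Prdm13 came from the interneuron list, and Chat and Slc18a3 from the motor neuron list. Sox3 came from the progenitor list and Onecut2 from the early neuron list. This count was made after the data had been seen. Without the face list it was 33.0% of members against 10.7% of all genes.

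The own regions at these starts overlapped Polycomb marks of the mapped tissues. The 17 members hold 16 such regions, since Chat and Slc18a3 share 1. All 16 overlapped H3K27me3 of limb and 14 that of forebrain, 11 overlapped H3K4me3 and 12 H3K4me1. Over the 248 own regions near any gene point, H3K27me3 of either tissue covered 42.7% (36.5 to 49.2%), and over shared regions near a point 42.4%. H3K4me3 covered 61.3% and H3K4me1 64.9% of the 248, near the counts of the members. The 11 own regions at starts of genes in the other lists, such as Dlx2 and Emx1 of forebrain, Gbx2 of midbrain and hindbrain, Sox17 of endothelium and Foxd3 of neural crest, lay over H3K27me3 in 10. The 16 regions had ranks from 6367 to 13931. A control or input list lay over 10 of the 16 and over 62.5% of the 248, and its part was not tested. The 6 without one were the regions of Olig3, Nkx2-2, Olig2, Tlx1, Pou4f1 and Onecut2, which left 6.19% of members against 0.537% of all genes.

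**Figure D5:**
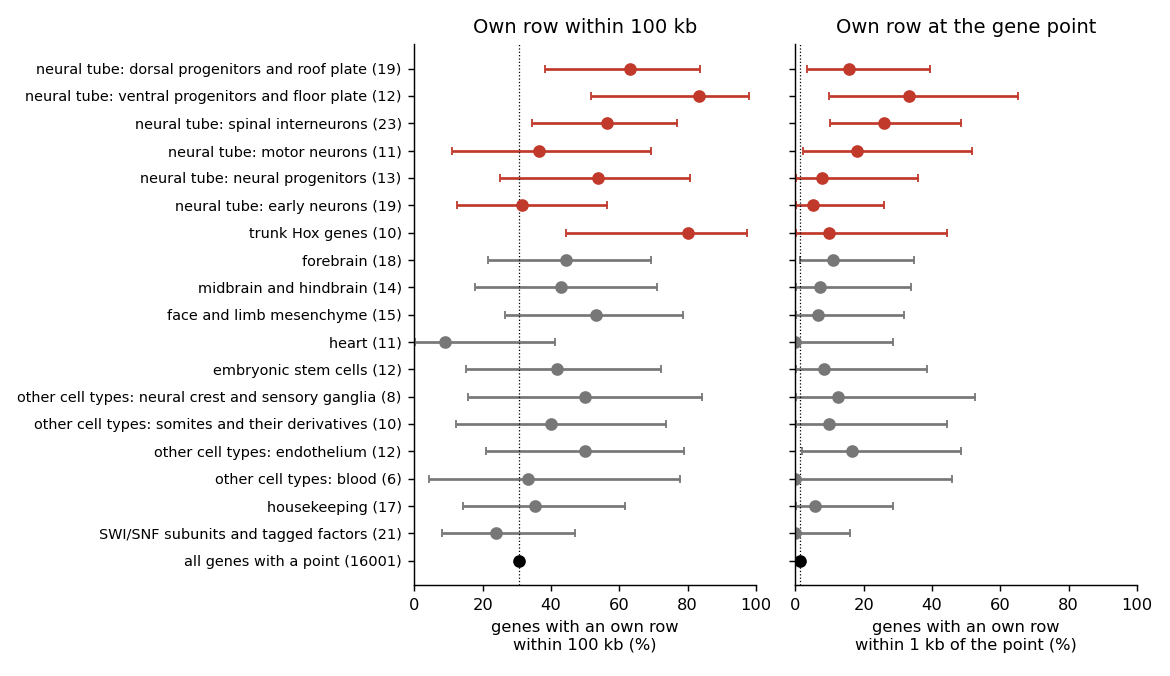
Points give the percentage of genes in each list with an own region within 100 kb (left) and within 1 kb of the gene point (right), with exact 95% intervals and the number of genes with a point in brackets; dotted lines mark all genes, 30.6% and 1.45%. Ventral progenitor genes stand at 83.3% and 33.3%, and heart genes at 9.09% and 0.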

How the data were processed

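The authors deposited peak lists, 1 per library. Reads were mapped to mm9 with BWA, per the submitters' processing notes, and no source used here names the peak caller. The neural tube, face, forebrain and limb SMARCA4 lists and the histone lists hold positions and ranks. The other SMARCA4 lists are deposited tables that also give, per the file headers, a score of -10*log10 of p, a summit and the nearest gene with its distance. The score entered where lists were cut to equal length, and nowhere else.

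Overlaps of at least 1 bp were counted with Python 3.11.15, numpy 2.4.6 and pandas 2.3.3, and intervals with scipy 1.17.1. Gene points were worked out from summit and distance in the 16 table lists where at least 2 peaks agreed, which placed 18934 of 23432 names, for 16001 genes. Of 288 list entries, 251 had a point, 13 through a RefSeq synonym. The point that the files give for Myt1 of the early neuron list is on another chromosome than RefSeq's Myt1, so this entry may be another gene; it has no own region. The code was tested on simulated data. Named genes were the 10 loci with the most own regions, members of the neural tube and trunk Hox lists with at least 3 own regions or with none of any kind, and the genes nearest to the 10 own regions of best rank. Some genes that meet this rule are not reported here. Other genes in the text are examples chosen after their values were seen. The members and lists were chosen with earlier results of these data known.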

Additional observations from a re-analysis of the deposited data

How the results depend on the processing

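No paired analysis was possible because each tissue has 1 library. No alternative turned the direction of the comparisons of own and shared regions in rank, width, H3K4me3 and H3K4me1, but many moved their size. Narrower classes did turn: H3K4me1 without H3K4me3 was 20.5 points higher in own regions, and -7.94 without control regions. H3K4me1 of forebrain and not limb was 1.68 points higher in own regions, -3.40 with the limb list cut and -3.42 away from H3K4me3. The own share was 46.2% where 50% of a region had to be covered, 28.8% with the central 500 bp alone, 19.7% with a tolerance of 1 kb and 32.1% with all lists cut to 1513 regions. It was 38.0% without the face list, 23.5% without forebrain, 23.6% without limb and 23.0% without heart. It was 61.8% without regions over a control or input list, 49.5% without regions near a gene point and 68.1% without regions over H3K4me3.

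Rank class 10 exceeded class 1 by 70.4 points (50% covered), 57.4 (central) and 46.3 (1 kb), by 67.6 without face, 42.3 without control regions and 41.3 without H3K4me3 regions. The own median width differed by -500 bp (50% covered), -700 (central), -450 (equal lengths), -750 (without face), -900 (without control regions) and -750 (without H3K4me3 regions). The H3K4me3 difference was -46.0 points (50% covered), -68.6 (central), -9.65 (equal lengths), -48.6 (without face), -41.4 (without control regions) and -57.6 (away from gene points). The H3K4me1 difference was -29.0 (50% covered), -42.4 (central), -56.2 (1 kb), -3.15 (equal lengths), -33.0 (without face) and -47.5 (without control regions). At equal lengths the neural tube list and the other lists were shortened together. With the lists whole, the H3K4me3 difference in rank class 1 was -89.7 points.

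Genes with at least 3 own regions numbered 334, and 85 within 50 kb, 156 with the nearest point alone and 1445 without face. Neural tube members with an own region were 39.2%, 41.2% and 73.2% under these, and 36.1% without regions near a gene point, where all genes stood at 17.6%, 15.3%, 54.7% and 26.7%. Members with an own region at the start were 17.5%, and 6.19% without control regions, 43.3% with 50% covered and 33.0% without face, against 0.537%, 15.0% and 10.7% of all genes, alternatives added after seeing the data. The excess of H3K4me1 of forebrain alone over limb alone, -7.12 points, became 0.625 with equal list lengths, also added. The cause of these shifts was not tested. Eml1 kept 6 to 8 own regions under the 6 settings tried, and DQ284430 and B3galt5 had 1 each, and Gse1 8, when a region went to its nearest point alone. Eml1 did not keep the lead in all settings. The most for any gene was 10 with the nearest point alone, where Eml1 had 7, and 11 without face, where Eml1 had 8.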

Other observations

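Lists of the other tagged factors covered fewer own than shared regions, as did most of their controls. Peaks of EP300, a histone acetyltransferase, covered 2.78% of own and 38.6% of shared regions in ESC, and 0.687% and 21.1% in face. SMARCC2, a further BAF subunit, covered 4.40% and 40.8% in face and 0.469% and 0.932% in hindbrain. NCOA2, a nuclear receptor coactivator, covered 1.22% and 25.6% in hindbrain. The control of EP300 in face covered 6.65% and 72.9%, and that of NCOA2 1.91% and 29.6%, more than the factors themselves. These control lists are also longer, with 28895 regions against 3589 for EP300 in face and 6781 against 3444 for NCOA2. Not all pairs went this way. The control of SMARCC2 in face covered 0.219% and 0.269%, less than the factor. In hindbrain the coactivator NCOA1 covered 0.219% and 6.19% and its control 0.281% and 2.35%, and the control of SMARCC2 covered 0.312% and 3.14%. The part of the controls and of list length was not tested. The genotype tags of these samples name the SMARCA4/FLAG knock-in while their descriptions name the factor above. No list of these factors in neural tube was analysed here. Away from H3K4me3 the SMARCC2 face list covered 25.1% of shared and 3.85% of own regions, and the SMARCC2 hindbrain list 0.297% and 0.451%, a difference of 0.154 points (-0.347 to 0.522), own minus shared.

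The own share differed between chromosomes. It ran from 17.3% (15.1 to 19.7%) on chromosome 11 to 26.0% (23.1 to 29.1%) on chromosome 8, and on X it was 20.3% (14.8 to 26.8%).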
